A study of Mus musculus with 1 sample.

Results

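Plasmacytoid dendritic progenitor-like cells were 235 of the 7645 bone marrow cells that passed the cell filter, which is 3.07% (exact Clopper-Pearson 95% interval 2.70 to 3.49). A cell was a member when at least 2 of Cox6a2, Upb1, Cd7, Ly6d and Siglech had 1 or more UMI (a unique molecular identifier, which counts 1 captured RNA molecule), Irf8 had 3 or more UMIs, and Ebf1, Rag1 and Cd79a had none. These 9 genes chose the members, so their values describe the choice and are no finding. The cell filter asked for a total between 1000 and 50000 UMIs, for between 1000 and 6500 genes and for less than 7% of UMIs from mitochondrial genes.

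The measurement was droplet single-cell RNA-seq of 1 library of lineage-negative, cKit-positive cells from the femora and tibiae of C57BL/6 mice. These were the control cells of the study: they carried Brd9 fl/fl, a floxed gene of a chromatin remodelling subunit, without the inducible Mx1-Cre that deletes it. The mice received pIpC, an RNA mimic that induces interferon, at 20 mg/kg in 3 doses given on alternate days, and the cells were taken 8 weeks later. The sample labels describe a CD45.2(+) Brd9fl/fl donor and a CD45.1(+) CD45.2(-) recipient dosed 4 weeks after transplantation, whereas the text of the series describes primary mice dosed 4 weeks after birth. A later age is given elsewhere for primary mice. Which of these applies was not settled. The Brd9-deleted counterpart is not analysed here, and the number of mice behind the library is not given in the sources used here. With 1 library there is no replicate, so no test was made. Every interval covers counting error within this library only, and every difference between members and other cells is a description of cells that the rule itself separated.

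Plasmacytoid dendritic cells are the dendritic cells that answer viral nucleic acid with type I interferon, sensed in endosomes by Toll-like receptors 7 and 9. They arise in bone marrow from progenitors with lymphoid or with myeloid features, and their identity depends on Irf8, on the E protein Tcf4 and on partners such as Spib and Runx2. Tcf4 binds the E-box, a short palindrome-like DNA element. Among conventional dendritic cells, which present antigen on MHC class II, a subset depends on Id2 and Batf3, and Id2 blocks E proteins. Mature plasmacytoid dendritic cells carry B220, which was in the lineage cocktail that the methods name beside CD3, Gr-1, CD11b and Ter119, so the sort can set the share given above.

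The DNA upstream of genes that chose or divided the members is shown to place them on the genome. RefSeq promoter entries were found for Siglech, Upb1, Irf8, Dntt and Spib, and Cox6a2, Cd7 and Ly6d are named only. The sequences are the 250 bases before the RefSeq start on build GRCm38.p6, in the direction of transcription, with each E-box (letters CANNTG, both strands read alike) in capitals. They are chr7:55767934-55768183 on the plus strand for Siglech, chr10:75406661-75406910 on the plus strand for Upb1, chr19:41029025-41029274 on the plus strand for Dntt and chr7:44532072-44532321 on the minus strand for Spib.
Siglech: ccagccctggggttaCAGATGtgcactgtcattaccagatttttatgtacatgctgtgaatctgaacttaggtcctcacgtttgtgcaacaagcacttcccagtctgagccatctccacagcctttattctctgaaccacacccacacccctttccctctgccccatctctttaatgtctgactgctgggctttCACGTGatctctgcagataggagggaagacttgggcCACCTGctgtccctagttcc
Upb1: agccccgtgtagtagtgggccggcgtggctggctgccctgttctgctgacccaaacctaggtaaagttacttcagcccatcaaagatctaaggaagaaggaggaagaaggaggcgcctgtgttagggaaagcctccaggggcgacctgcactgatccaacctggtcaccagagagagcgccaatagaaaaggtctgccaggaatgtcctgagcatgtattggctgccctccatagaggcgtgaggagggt
Dntt: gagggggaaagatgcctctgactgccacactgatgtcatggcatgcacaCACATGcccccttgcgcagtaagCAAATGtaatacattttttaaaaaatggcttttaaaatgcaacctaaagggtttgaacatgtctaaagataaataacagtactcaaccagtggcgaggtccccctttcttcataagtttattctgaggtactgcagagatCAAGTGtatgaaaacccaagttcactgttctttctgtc
Spib: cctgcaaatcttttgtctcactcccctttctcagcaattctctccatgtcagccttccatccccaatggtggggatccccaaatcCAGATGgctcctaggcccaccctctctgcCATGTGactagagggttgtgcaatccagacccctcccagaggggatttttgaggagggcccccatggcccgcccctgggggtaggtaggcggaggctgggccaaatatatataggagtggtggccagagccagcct
The Siglech and Dntt windows each hold 3 E-boxes, that of Spib 2 and that of Upb1 0. Of 32851 promoter windows of the same length, 66.2% hold at least 1 E-box. The Ets-Irf composite element, at which proteins of both families bind together, is in 2.30% of all windows, searched on both strands, and in none of these 4. The GC box GGGCGG is in 32.7% of all windows and among these in that of Spib alone, with 1 site. Such matches are descriptions of letters and not of binding. The annotated Upb1 gene begins upstream of this window, at position 75401115 of chromosome 10, so the window belongs to a start within the gene.

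Among the genes of the rule, Irf8 was seen in every member by construction, with 3, 29.0 and 96 UMIs as the lowest, median and highest value. Irf8 (ENSMUSG00000041515, chromosome 8, 120736358 to 120756694, plus strand) is the transcription factor that dendritic cells and monocytes require, and it overlaps Gm20388 on the same strand, with which it may share reads. Upb1 (ENSMUSG00000033427, chromosome 10, 75401115 to 75441679, plus strand), the last enzyme of pyrimidine breakdown, had a UMI in 170 members (72.3%). Cd7 (ENSMUSG00000025163, chromosome 11, 121036747 to 121039418, minus strand), a surface protein of lymphoid progenitors, T and NK cells, had one in 152 (64.7%). Siglech (ENSMUSG00000051504, chromosome 7, 55768178 to 55778925, plus strand), a sialic acid-binding receptor of mouse plasmacytoid dendritic cells, was seen in 120 (51.1%). Cox6a2 (ENSMUSG00000030785, chromosome 7, 128205435 to 128206387, minus strand), the muscle form of a cytochrome c oxidase subunit, was seen in 108 (46.0%). Ly6d (ENSMUSG00000034634, chromosome 15, 74762056 to 74763620, minus strand), a surface protein of lymphoid progenitors, was seen in the fewest members, 93 (39.6%), but reached 103 UMIs in 1 cell.

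The 5 marker genes came in unequal combinations. Of the members, 125 had 2 of them, 62 had 3, 33 had 4 and 15 had all 5. Upb1 with Cd7 and no other was the most frequent combination, in 59 members (25.1%). Upb1, Cd7 and Siglech came next with 27, and Cox6a2 with Ly6d alone in 18. Upb1 and Cd7 went together across the 235 cells (Spearman rho of UMIs per cell total 0.61), whereas Cox6a2 and Upb1 did so in the opposite sense (rho -0.46). These are descriptions within 1 library, where a cell's genes share its depth and the rule fixed which cells entered.

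The rule has thresholds, and the cells on either side of them differed. The 125 members with exactly 2 of the 5 genes had Irf8 at 1506 counts per 1000000 UMIs of the set (CPM), Tcf4 at 222 CPM, Runx2 at 241 CPM and Bst2 at 393 CPM. The 484 cells with 1 of the 5 genes, Irf8 at 3 or more UMIs and none of the excluded genes had Irf8 at 971 CPM, Tcf4 at 106 CPM, Runx2 at 77.3 CPM and Bst2 at 194 CPM. A further 6 cells had 2 or more of the genes but fewer than 3 Irf8 UMIs. The 17 cells kept out by a UMI of Ebf1, Rag1 or Cd79a had Irf8 at 572 CPM, Tcf4 at 335 CPM, Runx2 at 112 CPM, Bst2 at 223 CPM, Flt3 at 239.9 CPM and Dntt at 1762 CPM. Tcf4 and Flt3 were thus higher in these 17 cells than in the 125 members, where Flt3 was at 110.1 CPM, and Runx2 was lower.

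The members lay near each other when the 9 rule genes were left out of the distances. Genes that vary with the rule genes stayed in, so this is a description and no separate check of the rule. On average 50.5% of a member's 15 nearest neighbours were members, against 1.22% for the other cells. Of the remaining neighbours, 16.1% of all came from a set defined by Flt3 and Csf1r, 15.3% from cells in no set and 11.0% from a set defined by MHC class II genes. These are 6.17%, 67.5% and 5.81% of all cells, and the sets are described below with their levels. Of the members, 39 had under 20% member neighbours and 16 had none. In those 39 the summed level of neutrophil and granule genes had a median of 7675 CPM per cell, against 381 CPM in the other 196, and 6 of them were doublet calls, against 7 of the 196. Their median depth was 22512 UMIs, against 15230.5 in the 196, and the part of depth or doublets in this was not tested. Conversely 26 cells outside the rule had a majority of member neighbours. All 26 had at least 3 Irf8 UMIs, 16 had 1 of the 5 marker genes and 9 had none, so that low depth of the marker genes and absence of their RNA cannot be told apart in them.

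Genes of the plasmacytoid dendritic program that the rule did not use were higher in members for 15 of the 34 tested, and lower for 2. A gene was tested with 50 or more UMIs in all cells kept, and called higher when the ratio of CPM in members to CPM in all other cells was at least 2 with its 95% interval above 1. Lower means a ratio of at most 0.5 with the interval below 1. Of all 13470 genes tested, 991 (7.36%) were higher in members and 1256 (9.32%) lower, and the median ratio was 0.961. Among the 34, the interval lay above 1 for 25. The plot of gene levels in members against all other cells places these genes.

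**Figure D1:**
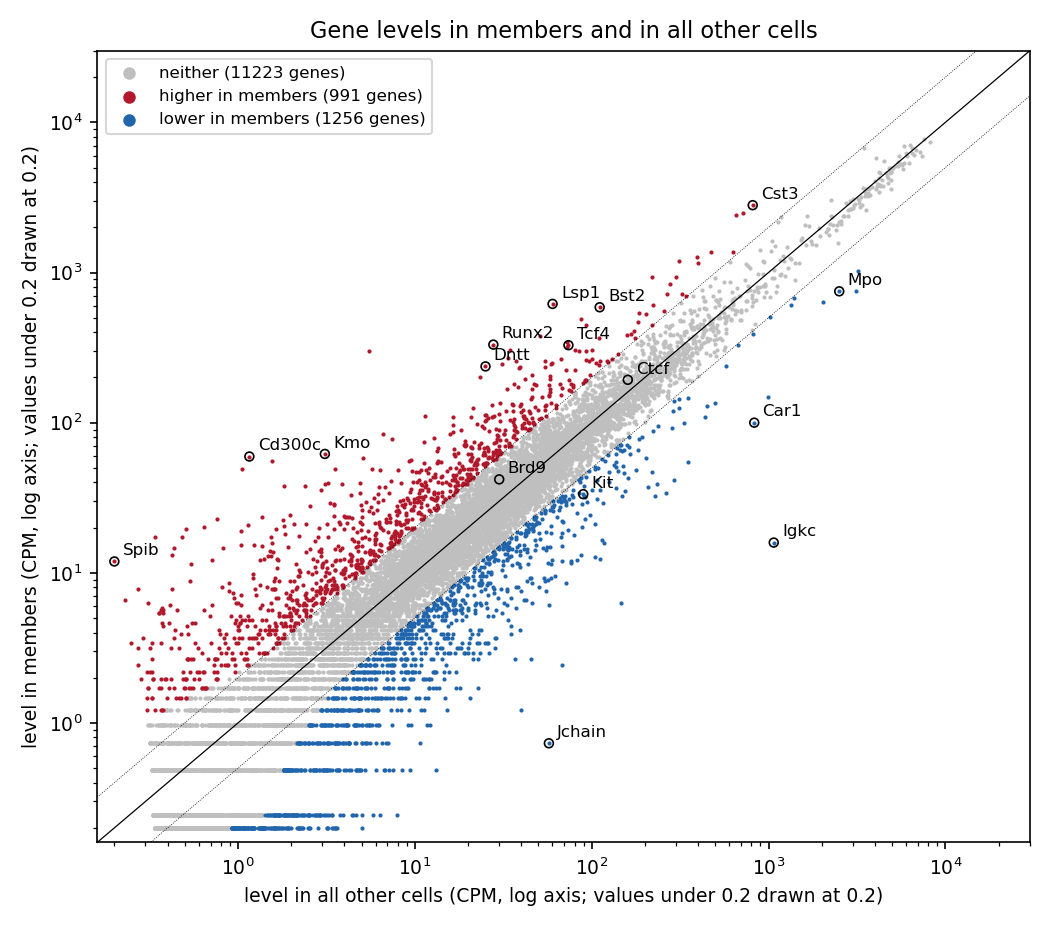
Level of each of the 13470 genes tested in the 235 members (vertical axis, CPM, log scale) against all other cells (horizontal axis, CPM, log scale), with equality as a solid line and 2-fold differences as dotted lines. The 991 genes higher in members include Runx2, Tcf4, Bst2 and Spib, and the 1256 lower ones include Mpo, Car1, Kit and Igkc.

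Transcription factors come first. Of 14 tested, 6 were higher, 0 were lower, and the median ratio was 1.80. Runx2, which acts with Tcf4 in plasmacytoid dendritic cells and in their exit from the marrow, stood at 331 CPM in members (313 to 349) and 27.8 CPM in other cells, a ratio of 11.9 (11.2 to 12.7). Tcf4, the E protein that the lineage depends on, stood at 328 CPM against 73.9 CPM (ratio 4.43, 4.18 to 4.69). Runx2 had a UMI in 217 members and Tcf4 in 212, so neither level rested on a few cells.
Spib, an Ets factor, was rare in both groups, at 11.9 CPM in members and 0.135 CPM in other cells (ratio 88.3, 51.5 to 157), and was seen in 35 members. Mef2c (2.56), Bcl11a (2.12) and Spi1 (2.04) were also higher. Irf7, the factor that drives interferon genes, had 35 UMIs in 28 members and missed the 2-fold limit (1.70, 1.18 to 2.39). Of 7 Irf genes tested beside Irf8, with Irf7 among them, 2 were higher, Irf5 (3.33) and Irf9 (2.08), and 1 was lower. Zeb2, which represses Id2, was at 1.30 and Myb, a stem and progenitor cell factor, at 0.715.

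Shares of cells with a UMI were compared at equal depth. Members had a median of 15908 UMIs, and 1134 erythroid cells with Klf1 and Car1, used as a reference that should lack dendritic RNA, had 33637. After each cell was thinned to 5000 UMIs, Runx2 was seen in 70.5% of members (64.2 to 76.3) and 1.23% of the reference (unthinned 92.3% and 4.59%). Bst2 was seen in 85.9% and 21.2% (unthinned 97.0% and 70.2%), and Tcf4 in 65.0% and 19.3% (unthinned 90.2% and 69.5%). The reference thus held some Tcf4 and Bst2 RNA, whereas Siglech, a gene of the rule, was seen in 0 of its cells and in 29.5% of thinned members (unthinned 51.1%). Spib was seen in 5.56% of thinned members and in 0 of the reference cells, which allows up to 0.325%. The 1 member under 5000 UMIs was left out of the thinned shares.

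Among surface and effector genes of plasmacytoid dendritic cells, 9 of the 20 tested were higher and 2 lower, with a median ratio of 1.57. Bst2, the tetherin antigen by which these cells are stained, stood at 587 CPM against 111 CPM (5.27, 5.05 to 5.50). Cd300c, an immunoglobulin-family receptor, stood at 59.5 CPM against 1.16 CPM (51.4, 42.1 to 62.9), and Atp1b1, a sodium pump subunit, at 58.3 CPM against 5.11 CPM (11.4). Rnase6, a secreted ribonuclease, was 8.60-fold higher and Pld4, an endosomal nuclease, 4.12-fold.
Ccr9, the gut-homing chemokine receptor of mature plasmacytoid dendritic cells, passed with 14 UMIs in 9 members (2.06, 1.11 to 3.52), of which 28.6% came from 1 cell. Ly6c2, common to monocytes and plasmacytoid dendritic cells, did not differ past the limit (456 CPM against 465 CPM), nor did Plac8 (1.35) or Lair1 (1.78). Of 5 further Ly6 family genes 1 was higher, Ly6k (2.63, with 16 UMIs). Mzb1, a chaperone of antibody secretion, was lower, at 5 UMIs in 4 members (0.286, 0.0924 to 0.670). Gzmb, which mature cells of this type make, had 0 UMIs in members against 2.20 CPM in other cells (a ratio of at most 0.333 at a floor of 3 UMIs). Pacsin1 (21 UMIs in 12 members), Cd209d (25 in 13) and Klra17 (9 in 5) were too rare over all cells to be tested.

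The machinery for sensing nucleic acid in endosomes was present with few receptor transcripts. Of 19 genes of the pathway tested, 8 were higher and 0 lower (median ratio 1.48). Unc93b1, the chaperone that carries these receptors to endosomes, stood at 298 CPM against 84.5 CPM (3.53, 3.33 to 3.75), and had a UMI in 229 members. Lgmn (15.9) and Ctss (5.05), proteases that cut the receptors, Slc15a4 (2.25), an endosomal transporter, and Irf5 (3.33), a factor below the receptors, were also higher. The sets described below differed in this. Against the MHC class II set, 1 of 18 pathway genes was higher and 1 lower (median ratio 0.952). Against the Dntt set without B genes, 7 of 17 were higher and 1 lower (1.75). Unc93b1 was at 1.68 and 2.88 against these 2 sets and at 1.43 against the Flt3 Csf1r set.
The receptors themselves were scarce. Tlr7 had 9 UMIs in 9 members (2.19 CPM against 0.487 CPM, ratio 4.5, 1.98 to 9.03) and Tlr9 had 4 UMIs in 4 members, too few over all cells to be tested. In the Dntt set without B genes Tlr7 stood at 5.91 CPM, from 17 UMIs. Myd88, Irak4 and Traf6, the signalling proteins shared with other receptors, had ratios of 1.22, 1.0 and 1.33. At this depth a share of thinned members of 2.14% for Tlr7 and 0.855% for Tlr9 is close to the detection limit.

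Conventional dendritic genes were higher in members as well. Of 18 tested, 11 were higher and 1 was lower, with a median ratio of 3.33, so that genes of both dendritic branches stood higher in members. Itgax, which encodes CD11c, stood at 48.8 CPM against 1.06 CPM (46.2, 37.3 to 57.3) and was seen in 98 members. Clec9a, a receptor for dead cells on dendritic progenitors, stood at 39.8 CPM against 3.24 CPM (12.3), and Cst3, an inhibitor of cathepsins abundant in dendritic cells, at 2809 CPM against 814 CPM (3.45). Cst3 was seen in all 235 members.
Id2 (4.52) and Batf3 (5.69), factors of a conventional dendritic subset, were seen in 72 and 36 members only. Both calls rested on 41 members rich in MHC class II genes, which held 402 of the 559 Id2 UMIs: without them the ratio was 1.47 for Id2 and 1.24 for Batf3. Xcr1, the chemokine receptor of the cross-presenting subset, had 1 UMI in all members against 2.05 CPM in other cells (0.119, 0.00300 to 0.668).

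The classical MHC class II genes were carried by a minority. Cd74, the invariant chain, was seen in 72 members and H2-Aa in 59, and their ratios of 1.84 and 1.93 missed the limit. Of the 8 genes of the pathway 4 were higher: H2-DMa (3.34), H2-DMb1 (3.35) and H2-DMb2 (6.42), which load peptide, and Ciita (3.14), their activator. H2-DMa had a UMI in 230 members. There were 41 members with 3 or more Cd74 UMIs and at least 2 of H2-Aa, H2-Ab1 and H2-Eb1.
Without those 41, the Cd74 ratio was 0.0717 and the H2-Aa ratio 0.0786, and 5 genes of the pathway were lower and 3 higher. The conventional dendritic genes then counted 8 higher and 2 lower. In this alternative, which was chosen after seeing the data, 14 of the plasmacytoid genes were higher.

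Lymphoid-primed genes had the highest median ratio of all lists, 4.35, with 11 of 13 higher and 0 lower. Dntt, the polymerase that adds bases at immunoglobulin and T cell receptor junctions, stood at 237 CPM against 25.1 CPM (9.44, 8.79 to 10.1), but was seen in 59 members only. Flt3, the receptor whose ligand drives dendritic development, was more even, at 126 CPM against 21.4 CPM (5.90, 5.37 to 6.48) in 190 members. Il7r, the interleukin 7 receptor chain, had a ratio of 8.81 and was seen in 40 members. Satb1 (4.40), Notch1 (3.64), Lsp1 (10.3) and Ccr7 (20.4, with 26 UMIs) were also higher, and Ighm, the heavy chain constant region that is transcribed before rearrangement, was at 1.57.

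B lineage genes were low in level but 6 of 10 were higher and 0 lower. Blnk, an adaptor of the pre-B cell receptor, stood at 19.0 CPM against 1.04 CPM (18.4, 13.8 to 24.3), and Blk, a kinase, Igll1 and Vpreb1, the surrogate light chain genes, and Fcrla and Cd72 passed at 13.6, 4.93, 2.72, 4.04 and 2.28. The direction of Vpreb1 turned when all cells were thinned (0.886). The defining B cell genes Pax5, Vpreb2, Ms4a1 and Pou2af1 had 0 UMIs in members. The summed level of the list ranged from 0 to 707 CPM per member with a median of 85.2 CPM. After thinning 1 gene of the list was higher, and the rule removed cells with Ebf1, Rag1 or Cd79a.
Of 11 T, NK and innate lymphoid genes tested, 8 were lower and 2 higher. The higher ones were Klrd1, the CD94 chain of NK receptors, at 55.6 CPM against 1.56 CPM (35.7, 29.6 to 43.1), and Thy1 (2.67, with 18 UMIs). Klrd1 was seen in 101 members, and after thinning in 25.2% of members and 0.0882% of the erythroid reference (unthinned 43.0% and 0.441%). Cd3e, Cd3g, Trbc1, Trbc2, Tcf7, Gzma and Cd2 had 0 UMIs in members, and Nkg7, a granule protein also made by myeloid progenitors, was lower (0.300).

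Monocyte genes were higher for 8 of 13 and lower for 0, at a median ratio of 3.08. Klf4 (6.00), Ctss (5.05), Ly86 (3.81), Ccr2 (3.52) and Csf1r (3.08) were among them, whereas Lyz2, the lysozyme of macrophages and granulocytes, was at 0.568. Vcan, which marks differentiated monocytes, had 0 UMIs in members. Csf1r, the receptor for macrophage colony-stimulating factor, was seen in 127 members and together with Flt3 in 101.

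Genes of the remaining lineages were lower. This held for 10 of 11 neutrophil and granule genes, 9 of 12 basophil, mast and eosinophil genes, 12 of 13 erythroid genes, 10 of 11 megakaryocyte genes and 9 of 14 stem cell genes, and none of these was higher. Mpo, the peroxidase of neutrophil granules, stood at 749.6 CPM in members and 2511 CPM in other cells (0.298, 0.288 to 0.309), and Hlf, a stem cell factor, at 8.54 CPM against 46.1 CPM (0.185). The haemoglobin genes depended on the erythroid reference among the other cells: their ratios were 0.128 for Hba-a1 and 0.142 for Hbb-bt, and 1.51 and 1.44 without it. Rhd (0.122) and Ermap (0.112), also of the erythroid list, turned likewise, to 1.33 and 1.13.
RNA of those lineages was uneven among members. The summed level of granule genes ranged from 0 to 52799 CPM per member (median 425 CPM, and 1938 CPM in other cells), that of basophil, mast and eosinophil genes from 0 to 34389 CPM (median 0), and that of erythroid genes from 0 to 7859 CPM. There were 17 members rich in granule, basophil, erythroid or megakaryocyte genes. Their median depth was 28240 UMIs and 9 of them were doublet calls (52.9%), against 13 calls among all 235 members (5.53%) and 255 among the other cells (3.44%). Their part in the results was not tested beyond leaving them out: 1110 genes were then higher and 1406 lower, and 15 of the plasmacytoid genes were higher.

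**Figure D2:**
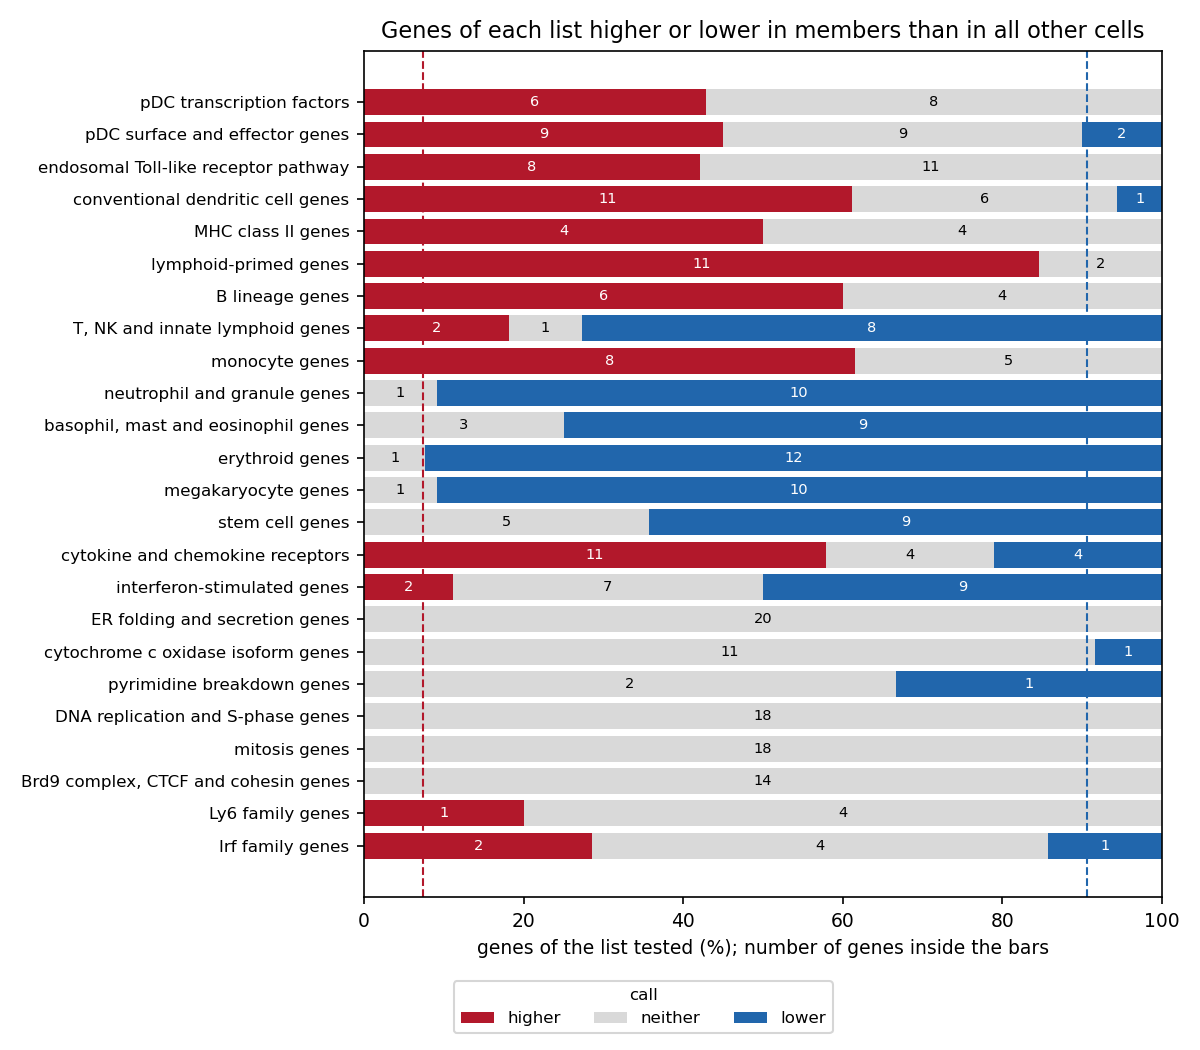
Share of the tested genes of each of 24 lists that were higher (red), lower (blue) or neither (grey) in members against all other cells, with the number of genes inside each bar. The dashed lines give the shares over all 13470 genes, 7.36% higher from the left and 9.32% lower from the right, and the lymphoid-primed list has the largest higher share, 84.6%.

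Receptors for cytokines and chemokines separated the members from other cells in both directions, with 11 of 19 higher and 4 lower. Beside Flt3, Csf1r and Il7r, the type I interferon receptor chains Ifnar1 (2.38) and Ifnar2 (2.08) were higher, as were Cx3cr1 (6.08), Cxcr4 (2.30) and S1pr4 (2.34), receptors that guide the movement of leukocytes. Kit, the receptor used for the sort, was lower, at 33.4 CPM (28.0 to 39.5) against 89.6 CPM (0.373), with a UMI in 83 members. Csf3r, the granulocyte colony-stimulating factor receptor (0.351), Ifngr1 (0.493) and S1pr1 (3 UMIs, 0.173, 0.0356 to 0.509) were the other lower ones.

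Of 18 interferon-stimulated genes tested in these mice, 8 weeks after pIpC, 9 were lower in members and 2 higher, with a median ratio of 0.512. The summed level of the list was nonetheless higher in members, at 1530.0 CPM against 1042 CPM, with medians per cell of 1460.1 and 1059 CPM. Ifitm3, an antiviral membrane protein, stood at 125 CPM against 311 CPM (0.401), Ifit1 had 0 UMIs in members against 1.71 CPM, and Oasl2, Rsad2 and Rtp4 had 4, 5 and 4 UMIs. The higher ones were Ifi27l2a, at 84.6 CPM against 6.59 CPM (12.8, 11.3 to 14.5), and Irf9 (2.08), the DNA-binding part of the interferon-activated complex. Irf9 was under the limit without the MHC class II rich members (1.76). Stat2, its partner, had a ratio of 1.71. A library without pIpC is not analysed here, so these ratios compare cells of the same treated mice.

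Genes of general functions differed little. All 20 genes of protein folding and secretion in the endoplasmic reticulum lay within 2-fold, with a median ratio of 0.95, and Xbp1, the factor of the unfolded protein response, was at 1.17. The 12 cytochrome c oxidase genes tested beside Cox6a2 included 1 lower gene, Cox6b2 (0.493). Cox6a1, the general form of the Cox6a2 subunit, stood at 282 CPM against 313 CPM. Of the enzymes around Upb1, Dpyd and Dpys, which act before it in the same pathway, had 0 UMIs in members and at most 0.0135 CPM in other cells, and Upp1, a uridine phosphorylase, was lower with 1 UMI (0.103, 0.00261 to 0.579).
Replication genes were even (18 tested, 0 called, median ratio 1.04) and mitosis genes somewhat above (18 tested, 0 called, median 1.44). Mki67, a marker of dividing cells, stood at 557 CPM against 378 CPM (1.48) and was seen in 196 members, and Top2a, which untangles DNA before division, was at 1.88. Of the 14 genes of the Brd9 complex, CTCF and cohesin, 0 were called. Brd9 itself stood at 41.9 CPM in members (35.9 to 48.7), a ratio of 1.40 to other cells (1.20 to 1.63), and Ctcf at 193 CPM against 160.1 CPM (1.20).

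Beyond the lists, the genes with the highest ratios among those at 50 CPM or more in members included Kmo, an enzyme of tryptophan breakdown, at 61.9 CPM against 3.10 CPM (20.0, 17.1 to 23.3). Jaml, an adhesion molecule of leukocytes, was at 77.8 CPM against 7.43 CPM (10.5), Ppfia4, a scaffold protein, at 111 CPM against 11.4 CPM (9.73), and Itgb7, an integrin chain of gut-homing cells, at 247 CPM against 31.0 CPM (7.97). Mpeg1, a pore-forming protein of phagocytes, was at 268 CPM against 33.5 CPM (7.99). Each of these was seen in over 100 members. Ahnak (8.86), S100a4 (7.44), Tpm4 (6.87), Aif1 (6.67) and Scpep1 (6.63) were also among the 20 highest.
At the other end stood the antibody genes, whose RNA lay in few of the other cells. They were Igkc, at 15.9 CPM against 1070.4 CPM (0.0148, 0.0114 to 0.0189), and Jchain, with 3 UMIs in members (0.0128, 0.00263 to 0.0373). Igkc was seen in 21.7% of members and 23.0% of other cells, and 17 of the other cells held 90% of their Igkc UMIs. The metallothioneins Mt1 (0.141) and Mt2 (0.120), Aldh1a1, the aldehyde dehydrogenase of stem cells (0.138), and Zfpm1, the Gata1 partner (0.144), were also among the 15 lowest.

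Members were also compared with 4 sets of other cells that carry genes found in members. Members were taken out first, and then each set in turn from those after it, so no cell is in more than 1 set and the order fixed what each holds. Taken in this order, the Dntt set with Ebf1 came first, then the MHC class II set, the Dntt set without B genes and the Flt3 Csf1r set. The MHC class II set (444 cells) had 3 or more Cd74 UMIs, at least 2 of 3 classical MHC class II genes and none of Ebf1 and Cd79a. By these genes alone 41 members would meet its definition, and 101 members that of the Flt3 Csf1r set. The Dntt set without B genes (159 cells) had 2 or more Dntt UMIs and none of Ebf1, Rag1 and Cd79a. The Dntt set with Ebf1 (39 cells) had both genes, and the Flt3 Csf1r set (472 cells) had both of its name genes. The median depths of the MHC class II set, the Dntt set without B genes, the Dntt set with Ebf1 and the Flt3 Csf1r set were 10968, 16863, 11512 and 23229.5 UMIs. Genes that define a set, or that were used to take cells out of it, are not read as results against it. The MHC class II set was mixed: Cst3 was seen in 98.6% of its cells, Id2 in 61.9% and Batf3 in 47.3%, but Itgax in 14.2%, Xcr1 in 12.4%, and the stem cell genes Hlf and Myct1 in 39.6% and 36.0%. It is therefore called by its rule and not by a cell type.

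Against the MHC class II set, 260 of 9755 genes tested were higher in members (2.67%) and 751 lower (7.70%). Runx2 (5.62, 4.99 to 6.36), Bst2 (3.82), Tcf4 (2.78, 2.53 to 3.05) and Spib (7.59, 3.69 to 17.6) were higher, as were Atp1b1 (30.3), Cd300c (18.9), Gria3, a glutamate receptor subunit (6.58), and Csf1r (6.33). Itgax (3.24), Klrd1 (2.74) and Ly6c2 (3.01) were also higher in members than in this set. Lower were Xcr1 (0.00476), Naaa (0.109), Batf3 (0.236), Id2 (0.239, 0.218 to 0.261), Cst3 (0.432) and Irf7 (0.384), and also Hlf (0.0598) and Kit (0.248). By lists, 10 of 18 conventional dendritic genes and 11 of 13 stem cell genes were lower in members and 4 and 0 higher.
Rnase6 (0.988), Pld4 (0.958) and Lsp1 (0.971), which stood high against all other cells, did not differ past the limit from this mixed set, whose summed level averages its unlike cells.

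Against the Dntt set without B genes, 483 of 8735 genes were higher in members (5.53%) and 357 lower (4.09%). Tcf4 (1.39, 1.27 to 1.53) and Mef2c (0.965) were close to even, whereas Runx2 (3.91, 3.41 to 4.5) and Bst2 (3.45) were higher, and Spib, with 49 UMIs in members and 0 in the set, was under the 50 UMIs asked for. Myeloid and dendritic genes showed the largest ratios, with Lgals3, a galectin, at 345 CPM against 2.78 CPM (124, 62.8 to 288), Klf4 at 26.7 and Ifi30, a lysosomal thiol reductase, at 26.2. Adgrl4 (0.120), Hlf (0.141), Ctla2a (0.146) and Angpt1 (0.223) were lower. By lists, 10 of 11 monocyte genes and 11 of 14 conventional dendritic genes were higher in members, against 1 of 13 plasmacytoid transcription factors and 1 of 8 neutrophil and granule genes. Of 17 plasmacytoid surface and effector genes 8 were higher and 1 lower. Basophil, mast and eosinophil genes were higher for 5 of 7. Prss34, a basophil protease, was at 41.0, with 30.4% of its UMIs in members from 1 cell. The set had been cleared of MHC class II rich cells, whereas members had not. Lyz2 (1.16), Spi1 (1.93) and Mpo (0.629) did not differ past the limit.

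Against the Flt3 Csf1r set, 480 of 9897 genes were higher (4.85%) and 242 lower (2.45%). Runx2 (4.76), Bcl11a (3.90), Tcf4 (3.12, 2.88 to 3.37) and Bst2 (3.10) were higher, as were Klrd1 (14.3) and Lsp1 (6.90), while Spi1 (1.12) and Pld4 (1.69) were not. The granule genes Mpo (0.241), Ctsg (0.308) and Prtn3 (0.314) were lower. Against the Dntt set with Ebf1, 646 of 7790 genes were higher (8.29%) and 441 lower (5.66%). That set had 0 UMIs of Csf1r (members at least 13.3-fold higher) and 0 of Cd300c (at least 10.8-fold), and Tcf4 was at 1.43 (1.19 to 1.73). Antibody genes lower in members rested on few cells of that set: all of its 852 Jchain UMIs came from 1 cell.

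**Figure D3:**
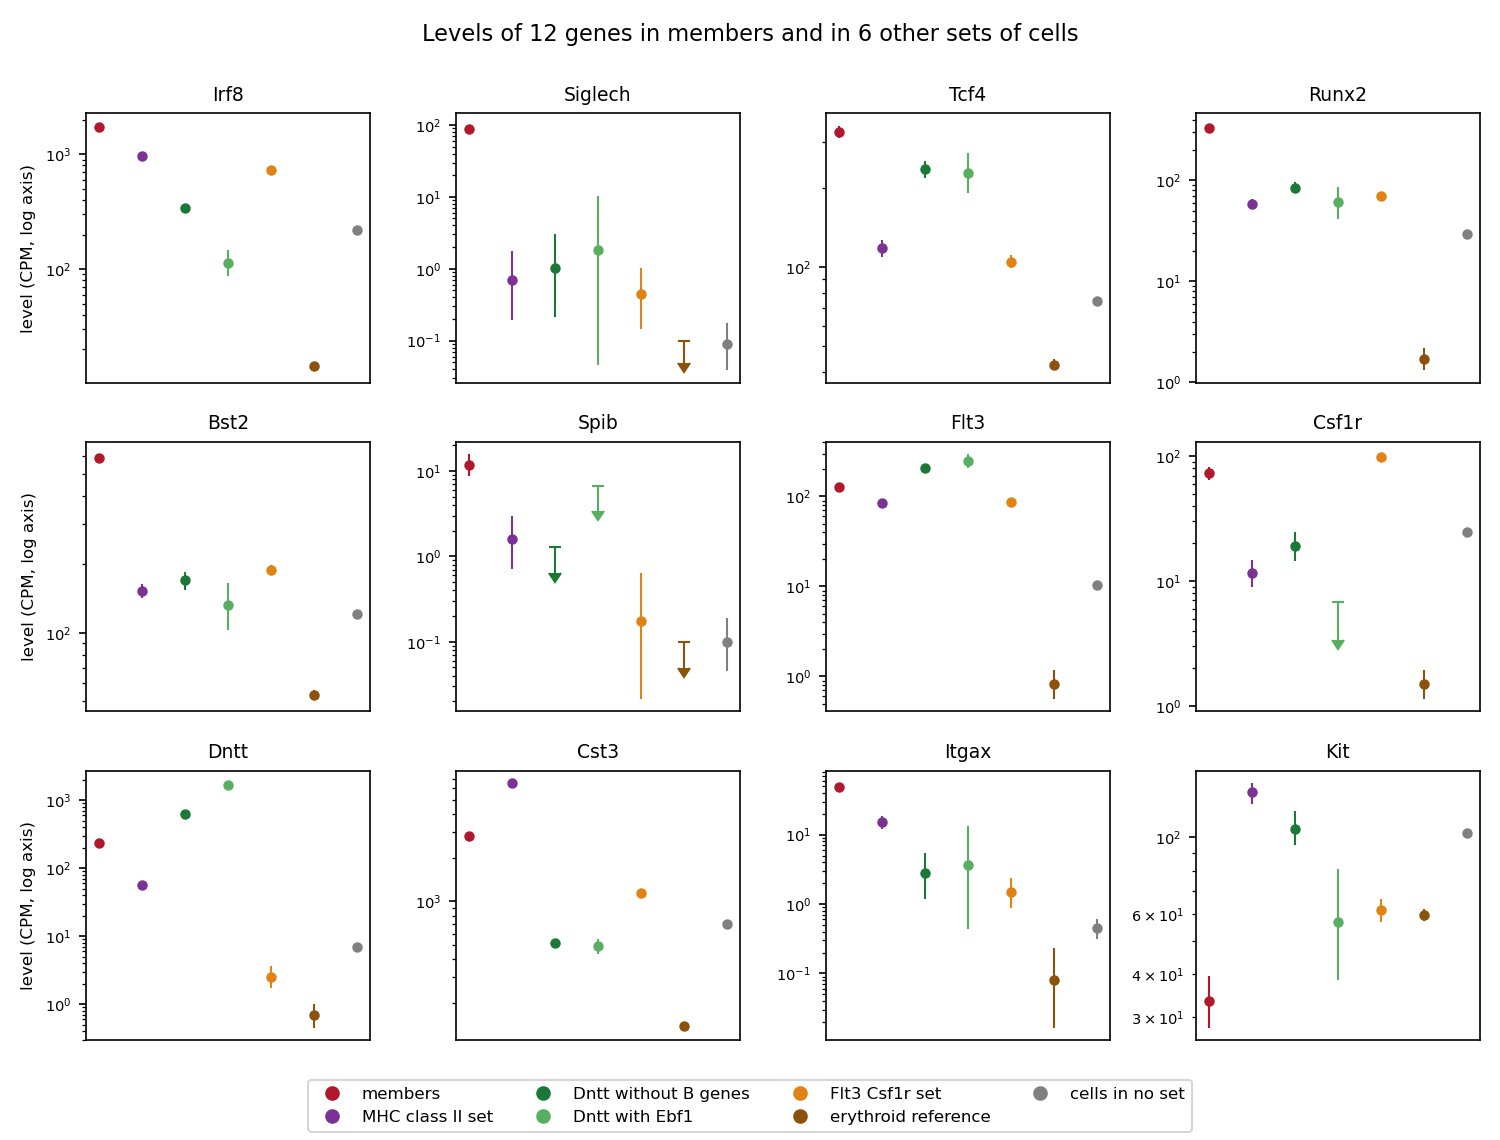
Level (CPM, log axis, bars are exact Poisson 95% intervals, arrows mark the upper limit where the set had 0 UMIs) of 12 genes in members, in 5 other sets of cells and in the cells that belong to no set. Tcf4, Runx2, Bst2 and Spib are highest in members, Dntt is highest in the Dntt set with Ebf1 (1689 CPM), Cst3 and Kit in the MHC class II set (6498 CPM and 135 CPM), and Irf8, Siglech, Dntt, Flt3 and Csf1r helped to define members or sets.

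For Tcf4 the order of the sets by level was members (328 CPM, 310.2 to 346), the Dntt set without B genes (236 CPM, 218 to 254), the Dntt set with Ebf1 (229 CPM, 191 to 273), the MHC class II set (118 CPM, 109 to 127), the Flt3 Csf1r set (105 CPM, 99.2 to 111) and the erythroid reference (42.6 CPM). The intervals of the 2 Dntt sets overlapped, as did those of the MHC class II and the Flt3 Csf1r set. Runx2 was at 331 CPM in members and between 58.8 and 84.5 CPM in the 4 closest sets. It therefore separated members from the Dntt sets, where Tcf4 differed by less than 2-fold. Brd9 lay between 33.7 and 44.0 CPM in members and the 4 sets, and the interval of each overlapped that of the members.

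The members were not uniform, and the genes of the rule divided them. Cd7 or Upb1 without Ly6d and Cox6a2 was seen in 101 members, Ly6d or Cox6a2 without Cd7 and Upb1 in 41, and genes of both pairs in 93. This split was made after the data had been seen. The median depths were 14787, 17633 and 15429 UMIs. Between the 101 and the 41 cells, of 7320 genes with 30 or more UMIs, 471 were higher in the Cd7 or Upb1 cells (6.43%) and 240 lower (3.28%).

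In the Ly6d or Cox6a2 cells 7 of 11 lymphoid-primed genes were higher than in the Cd7 or Upb1 cells, and 2 were lower. Of 3 B lineage genes 2 were higher, and of 20 endoplasmic reticulum genes 0 differed. Of 10 erythroid, 4 megakaryocyte and 5 stem cell genes, 3, 2 and 2 were higher in the Ly6d or Cox6a2 cells and 0 lower. Pf4, a platelet chemokine, was among them, with 280 of its 287 UMIs in 3 cells. Dntt had 0, 7 and 80 UMIs as the lowest, median and highest value in the 41 cells and was seen in 31 of them. In the 101 Cd7 or Upb1 cells it was seen in 2, with 1 UMI each, and in the 93 cells with both pairs in 26. The Dntt level was 833 CPM in the Ly6d or Cox6a2 cells and 1.20 CPM in the Cd7 or Upb1 cells (ratio of the second to the first 0.00144, 0.000174 to 0.00523).
Il7r followed at 79.1 CPM against 4.20 CPM, Il12a, a cytokine subunit, at 168 CPM against 10.8 CPM, Blnk at 46.5 CPM against 1.20 CPM and Lck, a kinase of T cell receptor signalling, at 36.4 CPM against 1.20 CPM. Arpp21 had 61 UMIs in 22 of the 41 cells and 0 in the other group. Satb1 (0.311) and Notch1 (0.337) were lower in the Cd7 or Upb1 cells to a lesser degree. Of the 9 Tlr7 UMIs in members, 7 came from 7 Ly6d or Cox6a2 cells and 0 from the Cd7 or Upb1 cells.

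In the Cd7 or Upb1 cells 10 of 11 monocyte genes, 10 of 14 conventional dendritic genes and 6 of 7 MHC class II genes were higher, and 0 lower. The neutrophil and granule genes had 1 of 6 higher, and Mpo (0.851), Elane (0.711), Zeb2 (1.05) and Itgax (1.98) did not differ past the limit. Lgals3 had 0, 9 and 35 UMIs as the lowest, median and highest value in these 101 cells and was seen in 90, against 3 of the 41. Its level was 593 CPM against 20.1 CPM (29.5, 18.1 to 51.8), and 14 of the 16 UMIs in the smaller group came from 1 cell. Ccr2, the monocyte chemokine receptor, was at 376 CPM against 18.8 CPM (20.0), Klf4 at 342 CPM against 43.9 CPM (7.79) and Id2 at 269 CPM against 17.6 CPM (15.3).
Cst3 had a median of 56.0 UMIs per cell (10 to 226) in the Cd7 or Upb1 cells and 11.0 (3 to 39) in the Ly6d or Cox6a2 cells, so that the ranges overlapped. Its levels were 4670.3 CPM and 739.6 CPM (6.31, 5.81 to 6.88). Batf3 and Cd209a, a lectin of dendritic cells, were seen in 30 and 23 of the 101 cells and in 0 of the 41, which makes them at least 13.6-fold and 11.0-fold higher against a floor of 3 UMIs. Csf1r (3.13), Spi1 (2.52) and Ly6c2 (4.41) were higher too. The 41 members rich in MHC class II genes were 29 of the Cd7 or Upb1 cells, 10 of the cells with both pairs and 2 of the Ly6d or Cox6a2 cells. Cd74 (39.2) and H2-Aa (33.4) rested on them, and Id2 in part, since its median was 0 UMIs in the 101 cells and its ratio without the 41 was 4.21. The Batf3 call against all other cells also rested on these 41 members, as given above. The Batf3 value and the list counts given here for the Cd7 or Upb1 cells include them.

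Several plasmacytoid genes did not follow this division past the 2-fold limit. Tcf4 was at 221 CPM in the Cd7 or Upb1 cells and 342 CPM in the Ly6d or Cox6a2 cells (0.647, 0.552 to 0.760), Runx2 at 318 CPM and 276 CPM (1.15, 0.981 to 1.35) and Bst2 at 545 CPM and 407 CPM (1.34, 1.18 to 1.53). Bcl11a (0.930), Cd300c (1.71) and Klrd1 (1.45) behaved in the same way. Others of the program were higher in the Cd7 or Upb1 cells: Pld4 (4.63), Rnase6 (3.53) and Spi1 (2.52). Spib had 21 UMIs in 15 of the 101 cells and 2 UMIs in 1 of the 41, under the 30 UMIs asked for. Kit (1.04) and Brd9 (0.997) were even. Siglech, a gene of the rule, stood at 57.1 CPM, 59.0 CPM and, in the cells with both pairs, 135 CPM. These levels are partly set by the rule, since a cell with 1 gene of a pair and none of the other needed Siglech to be a member.

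**Figure D4:**
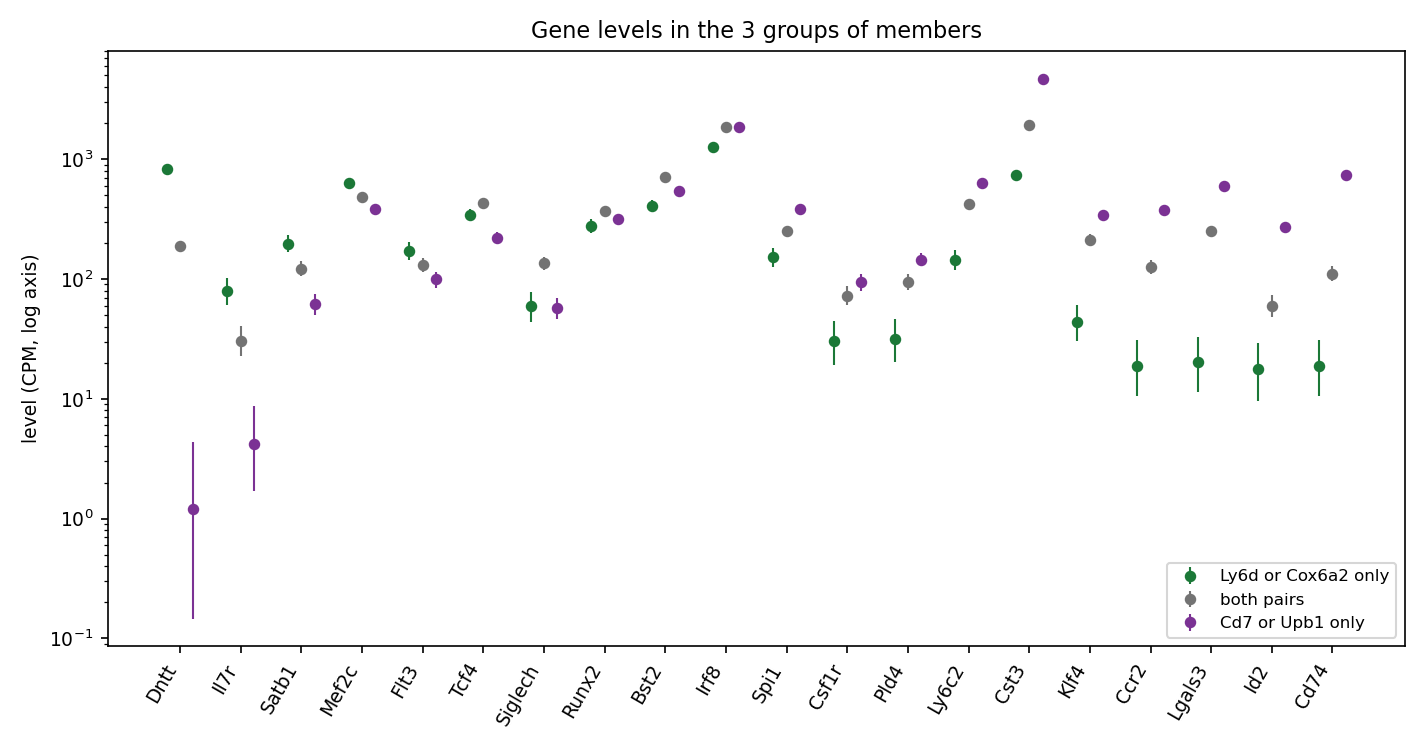
Level (CPM, log axis, bars are exact Poisson 95% intervals) of 20 genes in the 41 members with Ly6d or Cox6a2 only (green), the 93 with both pairs (grey) and the 101 with Cd7 or Upb1 only (purple). Dntt goes from 833 CPM in green to 1.20 CPM in purple and Lgals3 from 20.1 to 593 CPM, while Tcf4, Runx2 and Bst2 stay within 2-fold between green and purple.

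Cell by cell, Dntt and Lgals3 were seldom seen together. Of the 235 members, 54 had Dntt without Lgals3, 133 had Lgals3 without Dntt, 5 had both and 43 had neither. Ccr2 and Lgals3 went together (Spearman rho 0.81 over the 235 cells), as did Dntt and Cox6a2 (0.62), while Cst3 and Dntt ran opposite (-0.65). Tcf4 and Dntt had a rho of 0.30. The neighbours of the groups differed in the same sense. Among those of the Ly6d or Cox6a2 cells 15.6% belonged to the Dntt set without B genes and 2.11% to the MHC class II set, and for the Cd7 or Upb1 cells the shares were 0.132% and 21.1%.

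**Figure D5:**
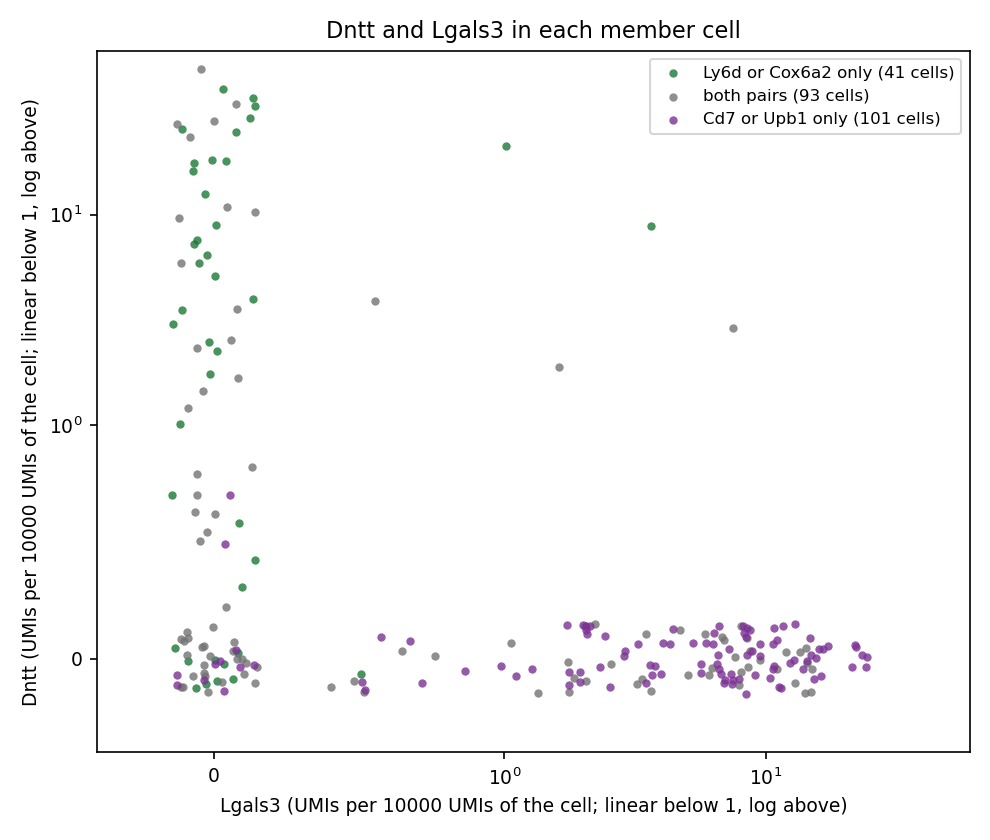
Dntt (vertical axis) against Lgals3 (horizontal axis) in each of the 235 member cells, as UMIs per 10000 UMIs of the cell, on axes that are linear below 1 and logarithmic above, with cells at 0 spread slightly for view. Points are coloured by the pair of rule genes seen, and they lie along the axes: 54 cells have Dntt alone, 133 Lgals3 alone and 5 both.

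A split by Dntt itself gave a related picture. Of 8579 genes, 253 were higher in the 59 members with Dntt than in the 176 without (2.95%) and 369 lower (4.30%). These counts moved to 151 and 599 when each gene's highest member cell was left out. Arpp21 was the gene with the highest ratio, at 78.8 CPM against 0.332 CPM, where the lower level is 1 UMI (237, 41.5 to 9480.0). Lck (24.1), Cmah (19.7), Il7r (19.3) and Blnk (12.6) followed, and Flt3 (2.09), Satb1 (3.19) and Notch1 (3.02) were higher as well. Plbd1, a lysosomal protein of myeloid cells, had 186 UMIs in 47 cells without Dntt and 0 in those with it. Tcf4 (1.39), Runx2 (0.931) and Bst2 (0.761) did not differ past the limit.
Some genes on either side rested on few cells. Of the 393 UMIs of Pf4, a platelet chemokine, in members with Dntt, 195 came from 1 cell. The 1341 UMIs of Prss34, a basophil protease, in members without Dntt were in 38 of the 176 cells.

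A split by Siglech, also made after the data had been seen, divided the members less. Of 8580 genes, 67 were higher in the 120 members with a Siglech UMI than in the 115 without (0.781%) and 91 lower (1.06%). The 2 groups were alike in depth, with medians of 15396 and 16241 UMIs. Atp1b1 (3.90, 2.84 to 5.46), Spib (3.48, 1.74 to 7.54), Klrd1 (2.69), Cd300c (2.55), Irf7 (2.52) and Itgax (2.46) were higher with Siglech, and so were Ptprf, a receptor phosphatase (4.03), and Cd33, a further Siglec (3.44).
Tcf4 and Bst2 were both at 1.94 and Runx2 at 1.48, short of the limit, and over the 235 cells Tcf4 and Siglech had a rho of 0.48 and Bst2 and Siglech of 0.53. Lower with Siglech were Batf3 (0.186), Id2 (0.317) and Cd74 (0.468), and the haemoglobin genes Hbb-bt (0.0990) and Hba-a1 (0.15). Of the 41 MHC class II rich members, 12 had a Siglech UMI, and 1 cell held 31.6% of the Cd74 UMIs on that side. Haemoglobin UMIs lay in few cells: without Siglech, 122 of Hbb-bt were in 22 cells, and 48 of all 139 Hba-a1 UMIs in members came from 1 cell. Dntt (0.734), Klf4 (0.860), Csf1r (1.02) and Brd9 (1.08) did not differ past the limit.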

How the data were processed

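The control library, replicate 1, was analysed. The deposited counts are whole numbers of UMIs per gene and barcode, which the authors obtained with Cell Ranger (version 6.0.2) on an mm10 reference. The quality filter on cells that the study's methods give had not been applied to them. A bulk RNA kit stands in the labels, but a droplet 3′ assay in the methods and in the header of the matrix, and the values are those of single cells. The file held 8817 barcodes and 32285 genes, of which the filter of the study's methods kept 7645 cells with 1592 to 49991 UMIs.

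Counts were summed over the cells of a set and given per 1000000 UMIs of that set (CPM). Ratios have exact conditional binomial intervals, levels exact Poisson intervals and shares exact Clopper-Pearson intervals (95%). They cover counting error only. Genes needed 50 UMIs (30 in splits of the members), and calls a ratio of 2 or 0.5. With 1 library no test or replicate check exists. Simulated counts with 200 changed genes among 13464 were used to check the comparison of members with all other cells: 99.5% of the changed genes were recovered, 82 unchanged genes were called and 96.2% of intervals held the fold. The counts were drawn as independent Poisson sums, which is the error that the intervals assume. The changed genes were taken from the better counted ones, with changes past the 2-fold limit. The simulation therefore checks the calculation and not the uneven spread of UMIs between cells. For shares each cell was thinned to 5000 UMIs, which left out 99 cells. Neighbours came from 30 principal components of 2000 variable genes, rule genes left out. Scrublet, at an expected rate of 6%, called 268 doublets, which stayed in, as no removal is named in the methods, and were left out in an alternative.

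The members and the 24 gene lists were chosen with earlier results of these data known. Named genes are those of the lists, the 20 highest and 15 lowest ratios at 50 CPM or more, and the 10 on each side of each split and set. The results of some list genes are not reported here. The split written first put all but 1 member on one side, so splits by pairs of rule genes and by Siglech were added. Promoters came from RefSeq (GRCm38.p6), and gene positions from the annotation of build GRCm38. Python 3.11.15, numpy 2.4.6, scipy 1.17.1, pandas 2.3.3, scanpy 1.11.5, scikit-learn 1.9.0 and matplotlib 3.10.9 were used. Alternatives are given in the closing section.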

Additional observations from a re-analysis of the deposited data

Results flagged for a closer look

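Outside the cells analysed, 10 of the 1172 barcodes that the cell filter removed met the rule for members (0.853%, exact Clopper-Pearson 95% interval 0.410 to 1.56). They were looked at because they carry the marker genes in data that no comparison used. Of the 10, 6 had 50000 or more UMIs, 7 had 6500 or more genes and 3 had a mitochondrial share of 7% or more, and their median was 53112 UMIs. Tcf4 stood at 126 CPM in them, Runx2 at 66.1 CPM and Bst2 at 178 CPM, below the levels in members. Whether they hold more than 1 cell was not tested.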

How the results depend on the processing

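With 1 library, no value has a replicate, so the spread between mice and any effect of the sort or of pIpC on the levels are not measured, and depth limits genes such as Tlr9, Spib and Gzmb. No paired analysis was possible because there is 1 library. Members numbered 110 with at least 3 of the 5 genes and 122 when the rule was applied to thinned cells, and 222 to 252 under the other alternatives. Genes higher in members ranged from 770 to 1161, genes lower from 1088 to 1636 and plasmacytoid genes higher from 13 to 20. With at least 3 genes, 366 genes were lower than in the Flt3 Csf1r set, 243 higher and 117 lower in Cd7 or Upb1 cells, and 161 higher with Dntt. With all cells thinned, 435 were lower than in the MHC class II set, 196 lower than in the Dntt set without B genes, 317 higher than in the Flt3 Csf1r set, and 287 higher and 137 lower in Cd7 or Upb1 cells, where fewer UMIs leave fewer genes to test. With a minimum of 20 UMIs, 1203 and 643 genes were lower than in the first and second of these sets. With a minimum of 1 UMI, 426 were higher and 1533 lower than in the MHC class II set, 746 higher and 836 lower than in the Dntt set without B genes, 888 higher than in the Flt3 Csf1r set, 509 lower in Cd7 or Upb1 cells and 549 higher with Dntt, as more genes entered. Without each gene's highest member cell, 151 were higher and 599 lower with Dntt. These directions turned: with at least 3 genes Cd74 (0.908) and, between the groups of members, Mki67 (0.985); thinned, Vpreb1 (0.886); without the erythroid reference Cox6a1 (1.05), Ermap (1.13), Rhd (1.33), Hba-a1 (1.51) and Hbb-bt (1.44); without MHC class II rich members Cd74 (0.0717) and H2-Aa (0.0786) and, in the split by Dntt, Cd74 (1.75) and H2-Aa (1.44). Of 1558 other values of 163 ratios, 1186 stayed within the counting interval of the reported ratio, 360 moved past it and 12 turned, and the cause was not tested where none is given. Leaving out MHC class II rich members, members rich in another lineage and each gene's highest cell were alternatives chosen after seeing the data.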
